A study of Sus scrofa with 41 samples.

Results

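The genes of translation factors and aminoacyl-tRNA synthetases were taken by symbol, from the initiation factors named EIF2 to EIF6, the elongation factors named EEF1 and EEF2, and the synthetases of the cytosol and of the mitochondria. The gene name table held 88 such symbols, and 84 of them were among the 25880 Ensembl genes counted in each pig. They comprised 33 initiation factors, 5 elongation factors, 10 regulators, 19 cytosolic synthetases and 17 mitochondrial synthetases. Of the 84 genes, 82 passed the filter on low counts and were tested among 11146 genes. EIF3G, with 0 to 2 counts per pig, and EIF4E1B, with 0 counts in every pig, were not. EEF1A1 and EIF5A were not among the matched symbols and are not analysed here.

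RNA was sequenced from psoas major, a muscle of the loin, of 41 purebred uncastrated boars fed without restriction up to a set weight. The 13 Danbred Duroc pigs were 131 to 156 days old (median 148) and the 28 Danbred Landrace pigs 147 to 166 days (median 154.5). RNA integrity number (RIN), a measure of how intact the RNA was, ran from 6.5 to 8.8, and the feed conversion ratio (FCR), a ratio of feed and growth, from 1.83 to 2.25. The labels give no formula for FCR and the methods of the study state gain per feed, but pigs do not gain more weight than the feed they eat, so values above 1 are read here as feed per gain, where a lower value is a more efficient pig. The pigs came from 5 slaughter batches, no pig received a treatment, and each pig gave 1 library. P-values therefore measure the spread between pigs, all raised at a single breeding station. The counts on genes ran from 22188911 to 25954816 per pig, and RIN went with the total (Pearson r = 0.81 over 41 pigs, given as a description). The muscle markers ACTA1, CKM and TNNT3 were abundant in all pigs, with a summed level of 104200 to 196900 CPM (counts scaled to a library of 1000000) in the Landrace pigs and 112400 to 153500 CPM in the Duroc pigs.

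Translation begins when eIF2 brings the initiator tRNA to the small ribosomal subunit, eIF2B recharges eIF2 with GTP, eIF3 holds the complex together, and eIF4F brings in the capped mRNA. The eEF1 factors then deliver charged tRNAs to the ribosome and eEF2 moves it along. Each synthetase charges its own tRNA, in the cytosol or, mostly as the product of a separate nuclear gene, in the mitochondria. GARS1 and KARS1 are counted here as cytosolic but also serve mitochondria. Muscle cells adjust these steps through kinases of eIF2 and of eEF2 and through the eIF4E-binding proteins. All levels below are CPM with TMM factors and compare pigs for 1 gene, not genes with each other.

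Relative to the TMM scaling, 21 of the 37 initiation and elongation factor genes were higher in Landrace than in Duroc, against 6 of the 36 synthetase genes, and the difference between these classes was not tested. The breed coefficient was fitted with FCR, RIN, age and batch in the model and tested with edgeR's quasi-likelihood test, with an adjusted p (FDR) under 0.1 as the threshold. Of the 82 genes, 29 were higher in Landrace and 3 lower, or 35.4% and 3.66%, where 15.6% and 17.5% of all genes tested were higher and lower. The initiation factors gave 17 higher and 1 lower of 32, the elongation factors 4 higher of 5, the cytosolic synthetases 5 higher of 19, and the mitochondrial synthetases 1 higher and 1 lower of 17. The median log2 change was 0.21 for initiation factors, 0.45 for elongation factors, 0.10 for cytosolic and 0.07 for mitochondrial synthetases, against -0.00 for all genes. These counts are relative to the TMM scaling. Scaled by library size only, the median of all genes moved to -0.18, and the split turned from 29 higher and 3 lower to 8 higher and 15 lower, with 534 higher and 3596 lower over all genes. Initiation factors then had 3 higher and 4 lower, and cytosolic synthetases 0 higher and 5 lower. Set against the median of all genes, the class medians hardly moved: 0.22 under both scalings for initiation factors, and 0.46 for elongation factors. EEF2, EEF2K, EIF2S1, EIF4B and EIF6 were among the genes that did not pass with library size scaling.

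**Figure D1:**
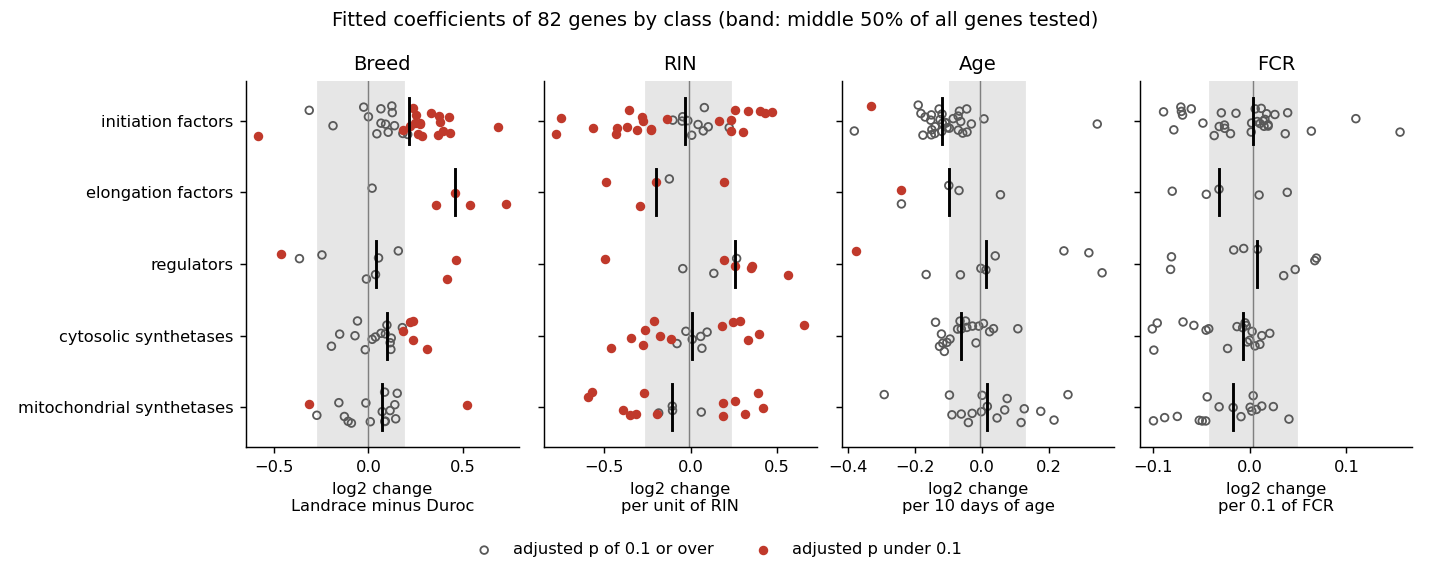
Fitted log2 change of each of the 82 genes (x axes) by class (y axis) for breed, RIN, age and FCR. Black bars are class medians, grey bands the middle 50% of all 11146 genes tested and red points genes with an adjusted p under 0.1. For breed under TMM scaling, the median of the elongation factors (0.45) and that of the initiation factors (0.21) lay above the band, and no gene passed for FCR.

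The elongation factors had the largest median breed difference of the 5 classes. EEF1A2, on chromosome 17 from 62517811 to 62526379 (Sscrofa11.1), is the form of eEF1A that mature muscle uses. Its level was 4460 to 6362 CPM in Duroc (median 4956) and 4955 to 8514 CPM in Landrace (median 6093). The groups overlapped, but 27 of the 28 Landrace pigs lay above the Duroc median, and the fitted difference was 0.45 ± 0.09 on the log2 scale (SE, 1.37-fold, FDR 0.00040). The subunits of the eEF1B complex reload eEF1A with GTP. EEF1D (chromosome 4, 969532 to 982250) had 110.4 to 254.5 CPM in Duroc (median 172.0) and 156.0 to 399.6 CPM in Landrace (median 218.5), a difference of 0.73 ± 0.10 (1.65-fold, FDR 2.5e-06). EEF1B2 (chromosome 15, 109451901 to 109455529) had 87.4 to 176.1 CPM in Duroc (median 119.1) and 108.4 to 220.3 CPM in Landrace (median 138.0), a difference of 0.54 ± 0.08 (FDR 8.8e-06). For both genes the ranges overlapped, with 12 and 5 Landrace pigs above the highest Duroc pig. EEF2, the translocation factor, differed by 0.36 ± 0.11 (FDR 0.013), with medians of 1290 CPM in Duroc and 1512 CPM in Landrace. EEF1E1, which is named with the elongation factors but sits in the multisynthetase complex, had a coefficient of 0.02 ± 0.12 (FDR 0.93).

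**Figure D2:**
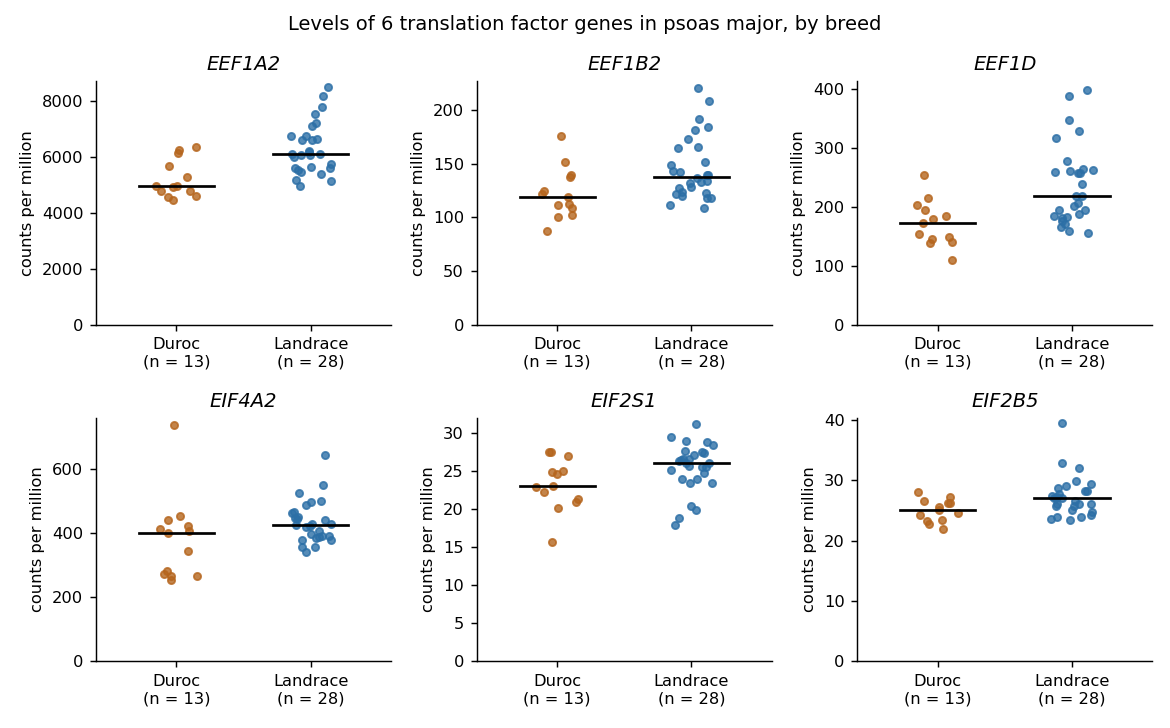
Level of 6 genes in CPM (y axes) in the 13 Duroc and 28 Landrace pigs. Each point is a pig and each bar a group median. All 6 pairs of groups overlap, and the medians of EEF1A2 are 4956 and 6093 CPM.

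Among the initiation factors, the smallest p for breed belonged to EIF4A2, a form of the RNA helicase of eIF4F (chromosome 13, 124582822 to 124589296). Its level was 255.8 to 736.9 CPM in Duroc (median 401.9) and 341.3 to 643.5 CPM in Landrace (median 427.3). In all, 5 of the 13 Duroc pigs lay below every Landrace pig. The single highest pig was Duroc 2, the only pig of batch 1. The fitted difference of 0.69 ± 0.09 (FDR 1.5e-06) compares with 0.24 for the plain difference of the mean log2 CPM, and it was 0.46 with age left out of the model. None of the other 4 eIF4F genes tested passed. EIF4E, the cap-binding protein, had -0.19 ± 0.14 (FDR 0.33), EIF4A1, the paralogous helicase, -0.31 ± 0.15 (FDR 0.11) and the scaffold EIF4G1 0.10 ± 0.08 (FDR 0.34). EIF4B, which stimulates the helicase, was higher in Landrace by 0.37 ± 0.08 (FDR 0.0013), with medians of 297.2 and 347.3 CPM.

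Every eIF2 and eIF2B subunit gene that was tested was higher in Landrace under TMM scaling. EIF2S1, the subunit whose phosphorylation slows initiation, had 15.7 to 27.5 CPM in Duroc (median 23.01) and 17.96 to 31.2 CPM in Landrace (median 26.1), a difference of 0.33 ± 0.07 (FDR 0.00058). EIF2S2 had medians of 112.8 and 138.6 CPM and a difference of 0.37 ± 0.10 (FDR 0.0073). All 4 eIF2B genes tested were higher, with log2 differences from 0.25 to 0.39. The catalytic subunit EIF2B5 had 21.8 to 28.1 CPM in Duroc (median 25.0) and 23.5 to 39.4 CPM in Landrace (median 27.0), with 9 Landrace pigs above the highest Duroc pig and a difference of 0.27 ± 0.08 (FDR 0.0097). With age left out of the model, EIF2B4 (0.12, FDR 0.34) and EIF2B5 (0.16, FDR 0.10) did not pass. None of the 4 passed when counts were scaled by library size only, where their median was 0.08, or 0.27 above that of all genes. In eIF3, 4 of 10 genes were higher and 0 lower, with a median of 0.16 that became -0.01 with library size scaling, where 1 was higher and 1 lower. EIF3M led with 0.43 ± 0.07 (FDR 6e-05), from a Duroc median of 21.7 CPM to a Landrace median of 23.9 CPM, and EIF3L, EIF3H and EIF3E passed with 0.27, 0.28 and 0.24. The mean level of EIF3E was 121.8 CPM in Duroc and 115.2 CPM in Landrace, opposite to its fitted difference. That Duroc mean includes Duroc 2 (195.0 CPM), the only pig of batch 1, which adds nothing to the fitted difference. EIF3E did not pass with age left out (0.11), with batch as a number (0.18) or without the filter on low counts (0.24, FDR 0.11). Nor did it pass without Landrace 27 and Duroc 10, the 2 pigs with the fewest counts (0.17). EIF3H did not pass with age left out (0.18) or with batch as a number (0.21). EIF6, which keeps the large subunit from joining, was higher by 0.26 ± 0.09 (FDR 0.033). The initiation factor gene lower in Landrace was EIF5A2 (-0.58 ± 0.26, FDR 0.095), at medians of 0.61 and 0.59 CPM.

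Of the 9 regulators tested, 2 were higher in Landrace and 1 was lower, beside the 15.6% and 17.5% of all genes. EEF2K, the kinase that inhibits eEF2, was higher in Landrace by 0.41 ± 0.14 (FDR 0.027), at 66.5 to 104.6 CPM in Duroc (median 77.4) and 54.9 to 121.2 CPM in Landrace (median 94.4). EIF4EBP1, an inhibitor of EIF4E, was higher by 0.46 ± 0.14 (FDR 0.016) although the median was 166.1 CPM among the Duroc and 165.5 CPM among the Landrace pigs. Its difference without age in the model was 0.22 (FDR 0.28). EIF2AK3, the eIF2 kinase of the endoplasmic reticulum, was lower (-0.46 ± 0.19, FDR 0.066), with medians of 4.52 and 3.76 CPM, and limma called neither it nor EIF5A2. EIF2AK1, EIF2AK2, EIF2AK4 and EIF4EBP2 did not pass.

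Of the 19 cytosolic synthetase genes 14 did not pass for breed. LARS1, IARS1 and KARS1, which charge leucine, isoleucine and lysine tRNAs within the multisynthetase complex, were higher in Landrace, as was TARS1, the threonine enzyme. LARS1 had the smallest p, with 18.9 to 31.3 CPM in Duroc (median 23.5), 16.2 to 30.4 CPM in Landrace (median 25.6) and a difference of 0.31 ± 0.09 (FDR 0.0074). IARS1, KARS1 and TARS1 had differences of 0.24, 0.18 and 0.22, and no Landrace pig exceeded the highest Duroc pig for LARS1 or KARS1. None of these 4 passed with library size scaling. EPRS1, WARS1 and GARS1 had coefficients of -0.02, -0.15 and 0.12 that did not pass. Among the mitochondrial synthetases NARS2 was higher by 0.52 ± 0.15 (FDR 0.012), with medians of 9.29 and 11.13 CPM, but did not pass with age left out (0.32, FDR 0.11), and FARS2 was lower (-0.31 ± 0.12, FDR 0.056), with medians of 5.78 and 5.03 CPM. IARS2 and LARS2 had 0.11 and -0.01.

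The fitted differences were larger than the plain ones. For all 32 genes called, the fitted breed coefficient was over 1.5 times the plain difference of the mean log2 CPM in size, with medians of 0.33 and 0.13 over the 29 higher genes, and for EIF3E and EIF4H the plain difference had the opposite sign. The plain difference was 0.44 for EEF1D, 0.27 for EEF1A2, 0.25 for EEF1B2, 0.14 for EEF2, 0.13 for EIF3M, 0.07 for LARS1 and 0.03 for KARS1. Within slaughter batches most genes kept their direction. Batches 2 to 5 held 2 to 4 Duroc pigs each, so their values are given without a test. The single pig of batch 1, Duroc 2, was fitted by its own coefficient and added nothing to the fitted differences. It is part of the plain differences, levels and ranges, and was the highest Duroc pig for EIF3E, EIF4A2, EEF1A2, EEF1B2, EIF3M and KARS1. Its part in the gap between plain and fitted values was not tested. Of the 29 genes higher in Landrace, 18 were higher in all 4 of these batches, 10 in 3 and 1 in 2, while the 3 lower genes were lower in 3 batches. EEF1D differed by 0.43 to 0.73, EEF1B2 by 0.22 to 0.52 and EEF1A2 by 0.20 to 0.52 within batches. FCR and breed were tied, with a median FCR of 1.94 in Duroc and 2.1 in Landrace, and the median RIN was 8.2 and 8.0. No alternative fit left FCR or RIN out of the model. Age and breed were tied too, since the Landrace pigs were older, and with age left out of the model 17 genes were higher and 2 lower. Those that then did not pass included EIF2AK3, EIF2B4, EIF2B5, EIF3E, EIF3H, EIF4EBP1, EIF5A2, EIF6, KARS1 and NARS2. Over 11 alternative fits, 7 of the 32 calls were kept in each one: EEF1A2, EEF1B2, EEF1D, EIF2S2, EIF3M, EIF4A2 and FARS2.

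**Figure D3:**
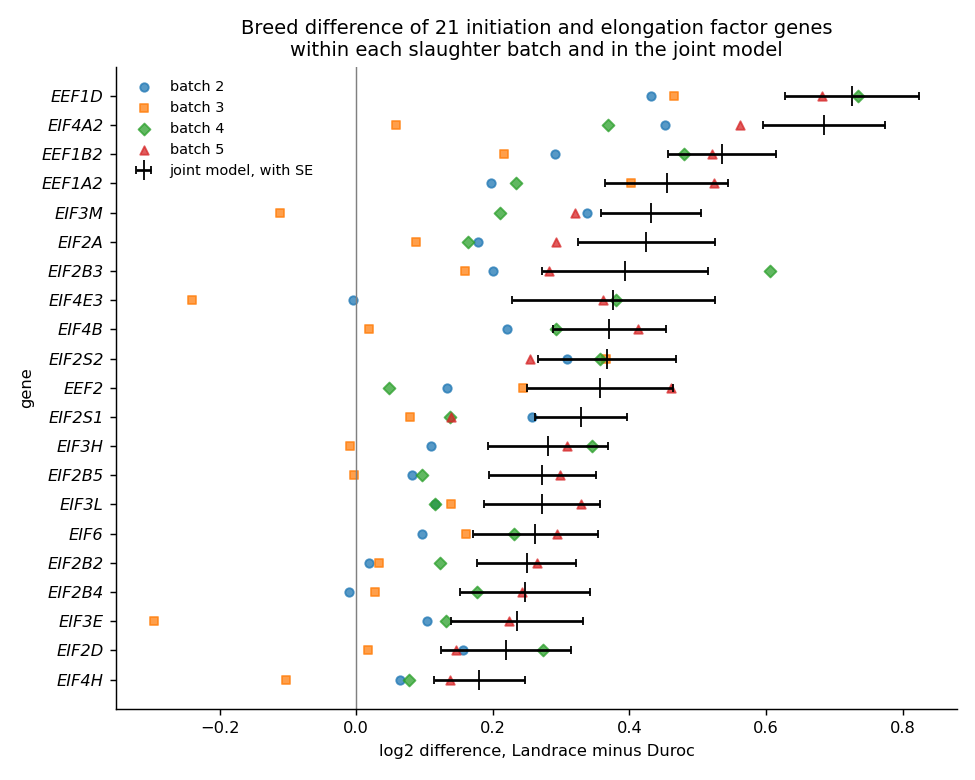
Log2 difference between Landrace and Duroc (x axis) for the 21 initiation and elongation factor genes that were higher in Landrace under TMM scaling (y axis). Symbols are plain differences within batches 2 to 5 and black bars the joint model with its SE. EEF1D lies between 0.43 and 0.73 in the 4 batches, and EIF3M is below 0 in batch 3 (-0.11).

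Genes that work beside these factors were counted from lists of the pathway, to be read beside the 15.6% higher and 17.5% lower of all genes. Of 18 cytosolic partners tested, 6 were higher in Landrace and 1 lower, with a median of 0.17. AIMP1, a scaffold of the multisynthetase complex, was higher by 0.53 ± 0.07 (FDR 2.5e-06) and PABPC4, a poly(A)-binding protein, by 0.44 ± 0.07 (FDR 3.6e-05), while the release factor gene GSPT1 was lower (-0.17 ± 0.06, FDR 0.056). The 12 mitochondrial partners gave 0 higher and 4 lower (GFM1, GFM2, MRRF and MTRF1), with a median of -0.13. Of 18 genes of the integrated stress response, the programme that eIF2 phosphorylation starts, 1 was higher (SLC7A5) and 3 lower (SLC3A2, SLC7A1 and MTHFD2), both shares below those of all genes.

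Markers of fibre and cell types were counted in the same way, beside 15.6% higher and 17.5% lower of all genes. Of 8 listed muscle markers 3 were among the counted genes, without TTN or the myosin heavy chains. All 3 were higher in Landrace (ACTA1 0.38, CKM 0.24 and TNNT3 0.60, median 0.38). Of 8 listed fast fibre markers 4 were counted, and TNNT3 is in both lists. Of the fast fibre markers 3 of 4 were higher in Landrace and 0 lower (median 0.54), with a summed level of 24740 to 50630 CPM in Duroc and 18200 to 69720 CPM in Landrace. Of the slow fibre markers 2 of 6 were lower and 0 higher (median -0.62), at 4623 to 14880 and 1526 to 18490 CPM. All 4 endothelial markers were lower (median -0.98), at 53.6 to 159.6 and 29.0 to 136.1 CPM, as were 2 of 3 smooth muscle, 2 of 6 fibroblast, 2 of 5 adipocyte, 1 of 7 leukocyte and 1 of 2 satellite cell markers, with 0 higher in each of these lists. The erythrocyte markers gave 0 of 2, and those of nerve were not tested. Their part in the breed results was not tested. In a piece of muscle, fewer cells of a type and less RNA per cell cannot be told apart.

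Of the 4 variables tested, RIN had the most genes past the threshold, 58 of 82, and they went both ways. Of the 82 genes, 27 were higher at higher RIN and 31 lower, or 32.9% and 37.8%, where 23.9% and 27.9% of all genes tested were. The share passing was 68.8% of initiation factors, 68.4% of cytosolic and 76.5% of mitochondrial synthetases. The medians per unit of RIN were -0.03, 0.01 and -0.11 for these classes, -0.20 for the 5 elongation factors and 0.26 for the 9 regulators, beside -0.01 for all genes. With library size scaling the median of all genes moved to 0.30, and the split became 50 higher and 8 lower, beside 6225 and 882 over all genes. In that scaling 15 of the 31 lower genes had a coefficient above 0, EEF1B2, EPRS1, KARS1, WARS1 and EIF4E among them, so directions below are relative to the TMM scaling.

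The eIF3 genes were split. EIF3J, a loosely bound subunit (chromosome 1, 126998613 to 127019264), had 84.6 to 190.2 CPM (median 148.8) in the 5 pigs with a RIN up to 7.1 and 44.9 to 79.2 CPM (median 67.2) in the 12 pigs with a RIN of 8.3 or over. These ranges did not overlap, and the slope was -0.78 ± 0.09 per unit of RIN (FDR 4.8e-08). Among the low RIN pigs, Landrace 22, Landrace 23, Landrace 27 and Duroc 10 were of batch 5, and no high RIN pig was. Levels by RIN here and below are not adjusted for batch or breed, whereas the slopes are. EIF3F fell from 154.1 to 218.2 CPM in the low RIN pigs to 88.9 to 127.1 CPM in the high RIN pigs (slope -0.57 ± 0.07, FDR 1.0e-07), and EIF3D from 85.2 to 120.0 CPM to 59.1 to 75.8 CPM (slope -0.43 ± 0.05, FDR 6.8e-08). EIF3I also fell (-0.37), while EIF3M and EIF3E rose with a slope of 0.23 each. With the strand columns summed EIF3M did not pass (0.06, FDR 0.37). EIF5B, which joins the ribosomal subunits, fell with -0.75 ± 0.09 (FDR 1.1e-07). The scaffolds EIF4G2 and EIF4G1 rose with 0.43 ± 0.08 and 0.30 ± 0.06. EIF4G2 had 513.7 to 1043 CPM in the low RIN pigs (median 663.7) and 963.6 to 1529 CPM in the high RIN pigs (median 1134). The subunits of eIF2 went apart, with 0.33 ± 0.05 for EIF2S1 (FDR 3.8e-06) and -0.43 ± 0.07 for EIF2S2 (FDR 1.2e-05). EIF2S2 and EIF3I did not pass with library size scaling.

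**Figure D4:**
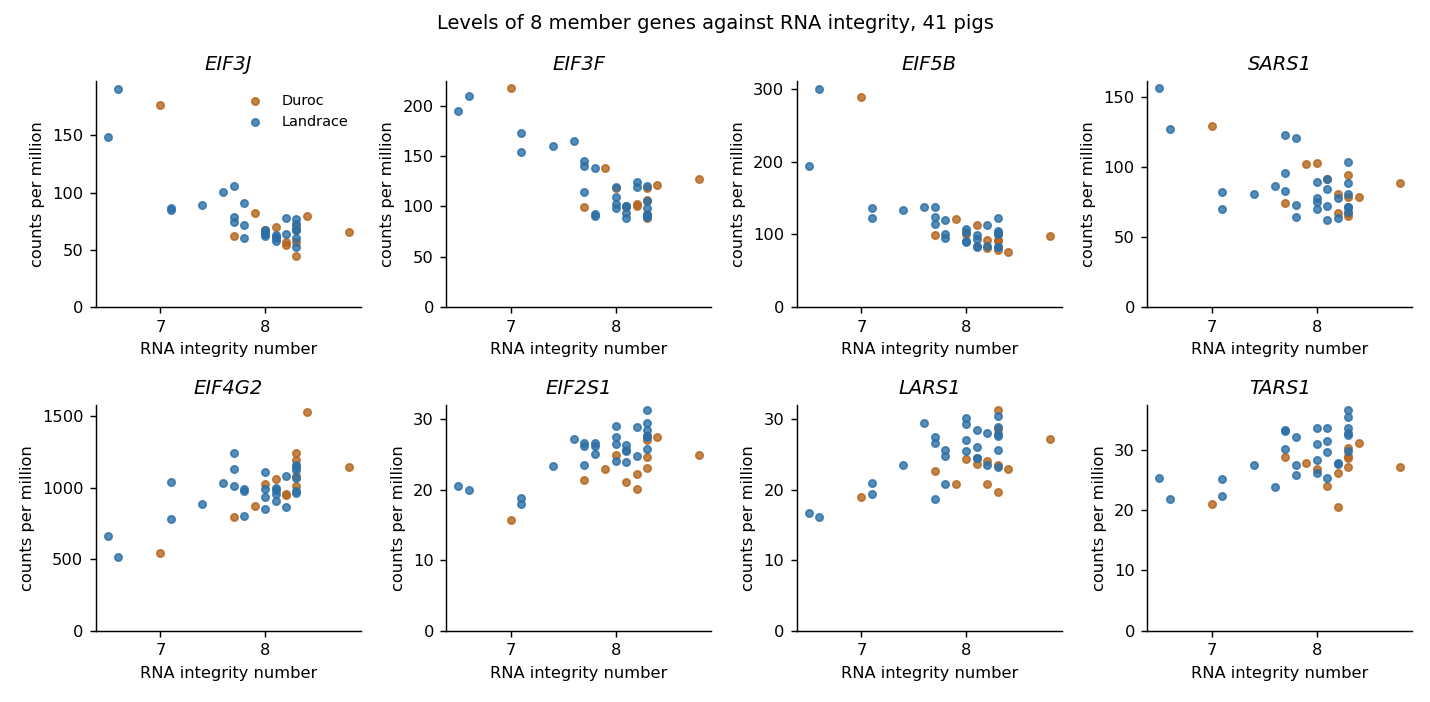
Level of 8 genes in CPM (y axes) against RIN (x axes) in 41 pigs, coloured by breed. The upper genes fell and the lower genes rose with RIN under TMM scaling, and EIF3J stands at 84.6 to 190.2 CPM in the 5 pigs with a RIN up to 7.1.

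Under TMM scaling the synthetases split in the same manner. With library size scaling, 13 cytosolic genes were higher at higher RIN and 1 lower, and 8 mitochondrial genes were higher and 1 lower. FARSA, CARS2 and TARS2, named below, did not pass in that scaling. LARS1 rose by 0.40 ± 0.07 per unit of RIN (FDR 1.1e-05), from a median of 18.9 CPM in the low RIN pigs to 27.3 CPM in the high RIN pigs, and IARS1 (0.29), TARS1 (0.24) and RARS1 (0.18) rose as well. SARS1 fell by 0.46 ± 0.09 (FDR 4.5e-05), from a median of 127.0 to 78.6 CPM, and FARSA fell by 0.34 ± 0.06 (FDR 3.1e-05), from 41.9 to 27.7 CPM. Of the mitochondrial genes FARS2 (-0.57), TARS2 (-0.59) and CARS2 (-0.39) fell, and LARS2 (0.31) and YARS2 (0.42) rose. Among the other classes EEF1D fell by 0.49 ± 0.07 (FDR 1.4e-06) and EIF4EBP1 fell by 0.50 ± 0.10 (FDR 0.00015), while EIF4EBP2 rose by 0.36 ± 0.09 (FDR 0.0024). MARS1 and EIF2AK1 rose by 0.66 and 0.57, but their slopes were -0.23 (FDR 0.0027) and -0.24 (FDR 0.011) when the strand columns were summed, so their direction depends on how overlapping pairs were counted.

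Without the 2 pigs with a RIN under 7, 39 of the 58 genes still passed, among them EIF3J (-0.69), EIF3F (-0.57), EIF4G2 (0.35) and LARS1 (0.33). EEF2, EIF2A, EIF3E and NARS2 no longer passed. Without Landrace 27 and Duroc 10, the pigs with the fewest counts, 40 passed, and TARS2 did not. Over 11 alternative fits, all with both breeds, 22 genes kept their call and its direction in each one. In the 28 Landrace pigs alone 47 of the 58 passed, and HARS2, one of the 22, did not. Among the 13 Duroc pigs alone no gene passed, with slopes of -1.04 for EIF3J and -0.49 for EIF3F. Within batches 2 to 5, 13 of the 27 rising genes rose in all 4 batches and 20 of the 31 falling genes fell in all 4. The library totals moved with RIN, and so did the share of read pairs off the annotated genes (Pearson r = -0.73 over 41 pigs); their part in these slopes was not tested. Markers are to be read beside the 23.9% higher and 27.9% lower of all genes for RIN. Of these, 5 of 6 slow fibre genes were lower at higher RIN, as were 3 of 4 fast fibre genes. The remaining fast fibre gene, ATP2A1, was higher (0.66 ± 0.14, FDR 0.00026). Of the fibroblast markers 3 of 6 were higher, and both erythrocyte markers were lower. Lower as well were 1 of 3 muscle markers (TNNT3, also in the fast fibre list), 1 of 3 smooth muscle, 1 of 5 adipocyte and 1 of 7 leukocyte markers.

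With age in the model, few genes passed. No gene was higher with age and 3 were lower, or 3.66%, where 1.03% and 0.727% of all genes tested were higher and lower. EIF4A2 fell by 0.33 ± 0.07 per 10 days (FDR 0.037), EEF1B2 fell by 0.24 ± 0.06 (FDR 0.069) and EIF4EBP1 fell by 0.38 ± 0.11 (FDR 0.099). EIF4EBP1 did not pass without the filter on low counts. The coefficient was below 0 for 30 of 32 initiation factors (median -0.12) and for 15 of 19 cytosolic synthetases (median -0.06), but for 7 of 17 mitochondrial synthetases (median 0.02), beside 51.4% of all genes. With library size scaling these counts were 25 of 32, 8 of 19 and 3 of 17, beside 33.0% of all genes. The median of the cytosolic synthetases was then 0.00, and its difference from that of all genes was -0.06 under both scalings. All 10 eIF3 genes and all 4 eIF2B genes were below 0 under TMM scaling, and 8 and 4 with library size scaling, and none of them passed. EIF2B4 and EIF3A passed with batch as a number, and EIF2B4 and EIF2B5 without the 2 pigs with the fewest counts. No single-breed fit called any of these genes, although the slopes of EIF4A2 were -0.26 in Landrace and -0.41 in Duroc, and none was called with library size scaling.

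With breed, age, RIN and batch in the model, no gene was related to FCR at the threshold. FCR went with age (Pearson r = 0.51 over 41 pigs) and differed between the breeds. The coefficient leaves out what FCR shares with them. edgeR, DESeq2 and limma each called 0 of these genes, and the smallest FDR by edgeR was 0.53. At an unadjusted p under 0.05 edgeR named 9 of 82, or 11.0%, where 8.68% of all genes tested had such a p. DESeq2 named 9 of 81 and limma 8 of 82. The cytosolic synthetases made up 4 of the 9: WARS1 (-0.10 ± 0.04 per 0.1 of FCR, FDR 0.53), GARS1 (-0.06 ± 0.03, FDR 0.54), FARSA (-0.07 ± 0.03, FDR 0.56) and SARS1 (-0.10 ± 0.05, FDR 0.56). The coefficient was below 0 for 14 of 19 cytosolic synthetases (median -0.01), beside 48.5% of all genes, and for 5 of 19 with library size scaling (median 0.05), beside 17.96% of all genes. WARS1, which charges tryptophan tRNA, stood at 14.6 to 27.2 CPM in Duroc (median 17.1) and 13.3 to 21.3 CPM in Landrace (median 17.0). The remaining 5 were EEF1D, EIF3F, EIF4E3, CARS2 and EIF4ENIF1. Initiation factors had a median of 0.00 and mitochondrial synthetases of -0.02.

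Slopes that differed between the breeds were tested by adding 1 interaction term at a time. None passed for these genes or for any gene tested. At an unadjusted p under 0.05 there were 3 genes for FCR, 7 for RIN and 4 for age, beside 582, 541 and 506 of all 11146 genes. The smallest p was that of EIF2AK2, the eIF2 kinase activated by double-stranded RNA, for FCR (difference of slopes -0.37, p = 0.0041, FDR 0.92 by edgeR), that of TARS2 for RIN (0.81, FDR 0.94) and that of WARS2 for age (-0.35, FDR 1.0).

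The correlation between levels differed from group to group. Over the 41 pigs the median pairwise Pearson correlation of log2 CPM was 0.37 among the 4 eIF2B genes, 0.30 among the 10 eIF3 genes, 0.18 among the 5 eIF4F genes, 0.20 among the 8 synthetases of the multisynthetase complex, 0.40 among the 5 elongation factors, 0.12 among cytosolic and 0.05 among mitochondrial synthetases, against -0.00 over all pairs of genes. The pair of eIF2 genes, EIF2S1 and EIF2S2, had -0.24. After RIN, age, FCR, breed and batch were removed, in the 40 pigs outside batch 1, it was 0.46 for eIF2B, 0.19 for the eIF2 pair, 0.12 for eIF3 (middle 50% of pairs from -0.29 to 0.39), 0.05 for eIF4F, 0.21 for the multisynthetase complex, 0.22 for elongation factors, 0.16 for cytosolic and 0.09 for mitochondrial synthetases. Initiation factors were correlated with cytosolic synthetases at a median of 0.02, and at -0.01 after the adjustment. The points share libraries and depth, so these values are descriptions.

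The unstranded column used here leaves out read pairs that fall on overlapping genes. For 13 of the 84 genes the strand columns together held over 1.1 times as many pairs as that column, and their values are uncertain to that extent. The gap was greatest for EIF3G, with 12 pairs over all pigs in the unstranded column and 141082 in the strand columns. The other ratios were 6.06 for YARS2, 5.89 for EIF2AK4, 4.72 for MARS1, 2.36 for EIF2AK1, 1.88 for IARS2 and 1.62 for EIF3M, and under 1.5 for EEF1B2, EIF3I, EIF2S2, EIF4A2, RARS2 and EIF2AK2. With the strand columns summed, the breed differences of EIF4A2, EEF1B2, EIF2S2 and EIF3M were 0.68, 0.54, 0.33 and 0.40, all with an FDR under 0.1. EIF2AK4 (0.16, FDR 0.082) and IARS2 (0.18, FDR 0.016), which did not pass in the unstranded column, then passed for breed, and EEF1B2 did not pass for RIN (-0.11, FDR 0.13).

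**Figure D5:**
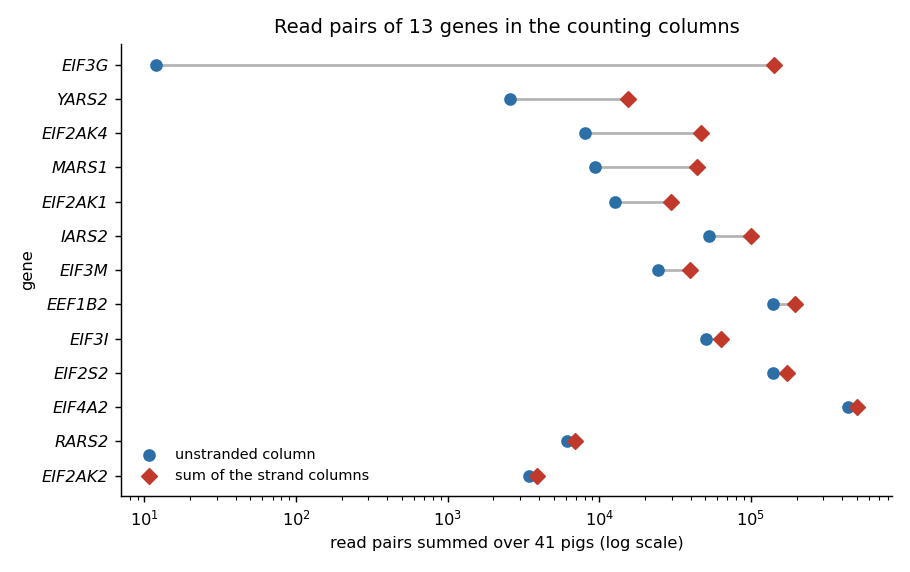
Read pairs summed over 41 pigs (x axis, log scale) for the 13 genes whose strand columns held over 1.1 times the unstranded column (y axis). EIF3G goes from 12 to 141082 pairs, and EIF2AK2 from 3436 to 3858.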

How the data were processed

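Read pairs (BGISEQ-500, polyA RNA, not strand-specific) were trimmed by the authors with Trimmomatic 0.39 and aligned with STAR 2.7.1a to Sscrofa11.1, and STAR counted pairs per Ensembl gene. The deposited values are whole counts for unstranded and both strand settings, without normalization or pooling, and the unstranded column was used. Symbols came from a name table (14857 of 25880 genes) and coordinates from RefSeq (83 of 84 members). Genes were filtered with filterByExpr (minimum count 10, minimum total 15) and scaled with TMM factors. The joint model, with breed, batch as a factor, age, RIN and FCR, followed the methods of the study and was fitted with edgeR 4.0.16 (quasi-likelihood, legacy form) in R 4.3.3, with Benjamini-Hochberg FDR over all genes tested. SE is the log2 change over the root of F. DESeq2 1.42.0 (at least 5 counts in every pig) and limma 3.58.1 were alternatives, and all fits were checked on simulated counts. The lowest chi-squared per degree of freedom between 2 libraries was 17.2, so none was held more than once. Depth limits genes of few counts, such as EIF5A2 (5 to 35 counts per pig). Exon lengths and sequences were not used here.

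The members and lists were chosen with earlier results of these data known. Genes were named by rule: in each class the 3 with the smallest p for each variable, the 2 with the highest and the 1 with the lowest level, and a list of regulators and core factors. The others, such as EIF2S2, EIF4B, EIF5B, EIF4G1, EIF2B2, EIF2B4, EIF4A1, TARS1, RARS1, TARS2, YARS2, MARS1 and further subunits of eIF3, were named after their values were seen.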

Additional observations from a re-analysis of the deposited data

Results flagged for a closer look

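Signal outside the column used was seen in 13 genes, whose strand columns held over 1.1 times as many read pairs over the 41 pigs as the unstranded column. EIF3G, an RNA-binding subunit of eIF3, had 141082 pairs in the strand columns against 12. With the strand columns summed, its coefficient was 0.27 for breed (edgeR, FDR 0.0067) and -0.30 per unit of RIN (FDR 2.3e-05). The RefSeq span of EIF3G meets that of P2RY11. YARS2 had 15570 pairs against 2568 and overlaps DNM1L, EIF2AK4 had 47171 against 8015 and overlaps SRP14, and MARS1 had 44018 against 9330 and overlaps ARHGAP9 and DDIT3. EIF2AK1 had 29911 against 12664 and overlaps AIMP2 and ANKRD61, and IARS2 had 99601 against 53041 and overlaps RAB3GAP2. The sums of the others were 39502 for EIF3M, 196414 for EEF1B2, 63134 for EIF3I, 173298 for EIF2S2, 504279 for EIF4A2, 6930 for RARS2 and 3858 for EIF2AK2. In a library without strand information a pair on overlapping genes can be given to either of them in the strand columns, so such sums can hold pairs of a neighbouring gene, and the share that does was not tested. EIF2S2 meets ASIP and EIF4A2 meets RFC4, while EIF3M, EEF1B2, EIF3I, RARS2 and EIF2AK2 meet no other gene in RefSeq.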

How the results depend on the processing

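No paired analysis was possible because the replicate numbers only name pigs, each of which belongs to 1 breed. Of 121 values recomputed under up to 13 alternatives, 1250 of 1491 results kept direction and side of the threshold, 205 lost it, 8 gained it and 28 changed sign. The count of genes for breed (32) fell to 19 with age left out, where initiation factors gave 10, cytosolic synthetases 3 and mitochondrial synthetases 1. With library size only, initiation factors gave 7 and mitochondrial synthetases 4 for breed, and with batch as a number cytosolic synthetases gave 3. For RIN, the Duroc pigs alone gave 0 in every class, and without the 2 pigs with a RIN under 7 initiation factors gave 13 and mitochondrial synthetases 8, as the latter did without the 2 pigs with the fewest counts. For age (3), DESeq2 gave 7, batch as a number 10, the fit without the 2 pigs with the fewest counts 5, and library size only or either breed alone 0. The 2 alternatives with strand columns summed or with the fewest counts left out were chosen after seeing the data. The cause of these changes was not tested. Slopes on RIN that changed sign with library size only were AARS2 0.0449, CARS1 0.0292, EEF1B2 0.0163, EEF1E1 0.12, EIF2B3 0.0094, EIF2B4 0.0390, EIF2D 0.0848, EIF4A1 0.0385, EIF4E 0.0797, EIF4E2 0.18, EPRS1 0.0501, KARS1 0.19, VARS1 0.13, WARS1 0.11 and WARS2 0.11, and slopes on FCR were EEF1A2 0.0118, EEF1B2 0.0261 and IARS2 0.0108. With strand columns summed, the RIN slopes of EIF2AK1, EIF2AK4 and MARS1 were -0.24, -0.0853 and -0.23, and the FCR slope of EIF2AK1 was -0.00168. In the Duroc pigs alone EIF2AK2 had 0.18 for FCR and -0.10 for age, and for RIN EIF4E had 0.10, RARS2 -0.10 and WARS2 0.18. In the Landrace pigs alone SARS2 had -0.0566 for age. Depth limits the genes of few counts, such as EIF5A2.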
